A study of Mus musculus with 6 samples.

Results

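The genes described here are 33 marker genes of T lymphocytes (19), B lymphocytes (8) and natural killer (NK) and other cytotoxic lymphocytes (6), taken by symbol as known markers of these cells. Of these, 30 have at least 1 row in the authors' deposited table of 3MC against DMSO, among 18137 genes, and together they hold 46 of its 25697 rows. No array values of Cd5, Cd79a and Gzma were analysed here. The arrays were made from ovaries of Swiss mice that were 3 to 4 days old and were kept for 96 h in organ culture on floating inserts. In 3 samples 3-methylcholanthrene (3MC), a combustion-derived carcinogen that activates the aryl hydrocarbon receptor, was added at 5 µM, a dose that pilot work had set for overt toxicity. The 3 others received only the vehicle, 0.01% dimethyl sulfoxide (DMSO). Both groups shared a DMEM/F12 medium with fetal calf serum, albumin, ascorbic acid, insulin-transferrin-selenium, basic fibroblast growth factor, leukemia inhibitory factor and stem cell factor. Explants on inserts have no blood supply, so the immune cells they hold are those the tissue carried into culture and their descendants.

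T cells recognise antigen through a receptor whose signal passes from the CD3 chains to the kinases Lck and Zap70, while B cells use a receptor coupled to the Cd79 chains. NK cells and cytotoxic T cells kill by releasing perforin, which forms pores, and granzymes, which are proteases. Macrophages and mast cells are known residents of the ovary in addition to such lymphocytes.

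In the cultured neonatal ovaries nearly all of the lymphocyte genes gave no more signal than the brightest probe for an olfactory receptor, a kind of gene that this tissue is not known to express. Of 26 member rows that could be tied to a probe with values per array, 3 lay above all 650 linked olfactory receptor probes in DMSO ovaries, namely Lck, Gata3 and Prf1. The other 23 lay at or below the brightest of those 650, whose log2 signal of 6.45 was itself above the median probe of an array (6.29). In DMSO 15.4% of linked member rows exceeded the median probe, against 57.4% of all linked rows. On a list of endothelial genes 6 of 12 linked rows did so, so a level below it does not show that a gene is absent. With 3MC, 1 of 3 member genes bright enough to be tested passed, Prf1, which was 1.33-fold higher, where 15.8% of all probes tested passed higher. The macrophage genes of the same arrays fell at 16 of 17 genes tested, where 16.4% of all probes tested passed lower. In a fit of all probes they fell at 16 of 21 linked genes, where 8.31% of probes passed lower.

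Signals are normalized log2 intensities, on which the median probe of an array read 6.29, the dimmest 5.65 and the brightest 14.38. Before normalization the median scanner intensity was 98.1 to 124.5 with 3MC and 107.8 to 109.1 with DMSO, and the lowest was 72.7 to 80.0 over the 6 arrays. Ovarian genes were bright. The oocyte growth factor Gdf9 averaged 13.00 ± 0.13 with 3MC and 12.75 ± 0.065 with DMSO, the granulosa cell receptor Amhr2 11.71 ± 0.080 with 3MC and 12.11 ± 0.065 with DMSO, and the stromal proteoglycan Dcn 13.02 ± 0.18 with 3MC and 13.28 ± 0.077 with DMSO (SD, n = 3 each). The number of arrays limits the precision, and no label states that replicates are separate cultures or animals. The p-values therefore rest on a spread that may be only technical. Groups were compared with limma over the 12848 probes whose mean over the 6 arrays exceeded that of the median probe, the signal filter used throughout, of which 32.2% passed at an adjusted p of 0.05, 15.8% higher and 16.4% lower with 3MC. When arrays were centred on their medians in place of quantile normalization, 31% of passing probes were higher, against 49% in that fit.

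Olfactory receptor probes averaged 5.71 to 6.45 in the DMSO arrays, with a median of 5.94 and a 95th percentile of 6.15. Over the 26 linked member rows the mean in DMSO ran from 5.86 to 6.95, with a median of 6.05. The matching median in the 3MC arrays was 6.02. The median linked row stood at the 35.2 percentile of all probes in DMSO, where olfactory receptor rows stood at 18.9 and all linked rows at 57.2. In DMSO, 4 of the 26 linked member rows (15.4%) exceeded the median probe, against 0.923% of olfactory receptor rows and 57.4% of all linked rows. Of the 20 member rows that more than 1 probe could account for, 17 had only candidate probes within the olfactory receptor range, up to 6.30. In all, 40 of 46 rows were thus at or below it.

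**Figure D1:**
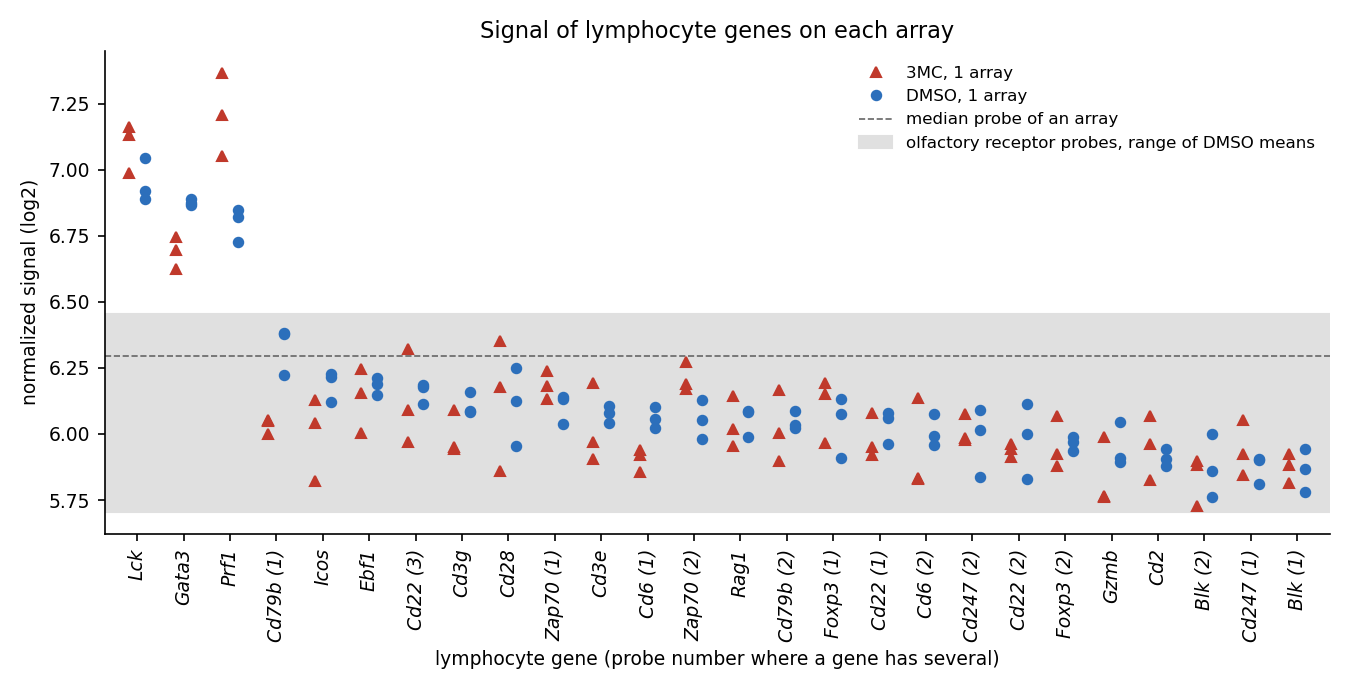
Normalized log2 signal (y axis) of the 26 linked lymphocyte rows (x axis, ordered by DMSO mean), with 1 triangle per 3MC array and 1 circle per DMSO array. The grey band is the range of DMSO means of olfactory receptor probes (5.71 to 6.45) and the dashed line the median probe (6.29). Only Lck, Gata3 and Prf1 stand above the band.

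**Figure D2:**
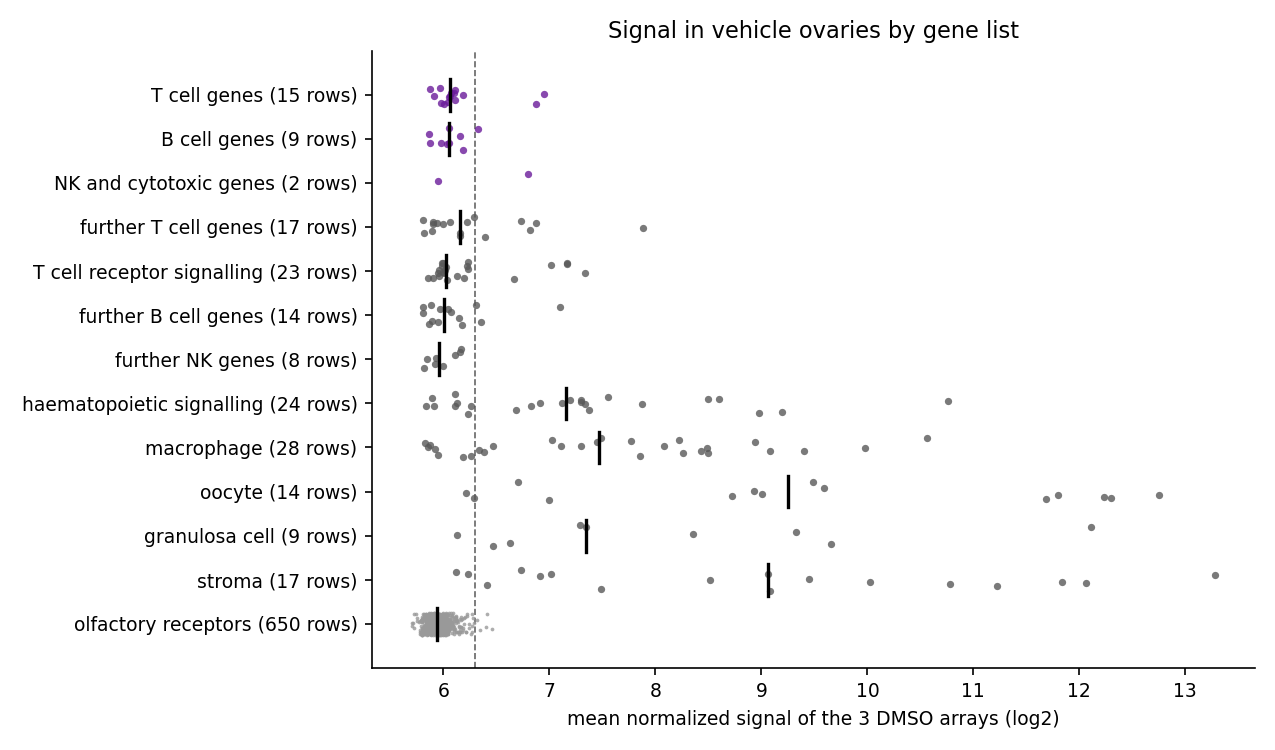
Mean normalized log2 signal of the 3 DMSO arrays (x axis) for the linked rows of each gene list, with 1 point per row, a bar at the median where there are more than 2 rows, and a dashed line at the median probe. The medians of the T cell and B cell rows are 6.06 and 6.05 and that of the olfactory receptor rows is 5.94, while 1 of 2 NK and cytotoxic rows (Prf1) lies above every olfactory receptor row. Macrophage rows have a median of 7.46 and oocyte rows one of 9.25.

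The 3 members with signal above that range are shown by their promoters, because they are the members whose level could be read and 3MC acts through a DNA-binding receptor. The windows run from 250 bases before to 50 after an annotated start (RefSeq, GRCm38.p6), and capitals mark the letters AGGAAGT or their reverse complement, which ETS family factors of blood cells are known to bind. Lck has 2 annotated starts, and its windows lie on the minus strand at chr4:129558323-129558622 and chr4:129573592-129573891. The Prf1 window lies on the plus strand at chr10:61297586-61297885 and the Gata3 window on the minus strand at chr2:9878551-9878850.
Prf1: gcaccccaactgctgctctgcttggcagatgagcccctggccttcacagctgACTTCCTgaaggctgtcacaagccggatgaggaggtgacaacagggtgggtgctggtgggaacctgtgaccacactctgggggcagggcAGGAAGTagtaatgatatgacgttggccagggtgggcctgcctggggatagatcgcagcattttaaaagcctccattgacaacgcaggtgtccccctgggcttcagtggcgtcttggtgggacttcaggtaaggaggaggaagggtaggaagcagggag
Lck, downstream start: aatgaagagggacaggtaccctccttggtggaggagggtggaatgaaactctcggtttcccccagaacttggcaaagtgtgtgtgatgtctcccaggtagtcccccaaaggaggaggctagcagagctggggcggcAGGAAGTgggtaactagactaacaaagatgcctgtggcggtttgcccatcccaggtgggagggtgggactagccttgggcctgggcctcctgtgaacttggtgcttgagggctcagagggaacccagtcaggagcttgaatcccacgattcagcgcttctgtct
Lck, upstream start: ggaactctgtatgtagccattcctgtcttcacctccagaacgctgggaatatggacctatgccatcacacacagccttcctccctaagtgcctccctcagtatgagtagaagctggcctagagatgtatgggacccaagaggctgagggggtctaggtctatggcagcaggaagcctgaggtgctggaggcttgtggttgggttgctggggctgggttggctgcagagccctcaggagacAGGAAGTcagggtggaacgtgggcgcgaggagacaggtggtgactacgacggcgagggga
Gata3: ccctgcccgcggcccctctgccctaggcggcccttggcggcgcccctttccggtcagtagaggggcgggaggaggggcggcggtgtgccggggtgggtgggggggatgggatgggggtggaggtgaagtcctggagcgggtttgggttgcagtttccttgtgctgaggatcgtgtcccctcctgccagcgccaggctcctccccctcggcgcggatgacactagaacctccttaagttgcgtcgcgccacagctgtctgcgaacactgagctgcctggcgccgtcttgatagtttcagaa
The Prf1 window holds AGGAAGT on both strands, beginning 109 and 198 bases before the start. In Lck it begins 114 bases before the downstream start and 10 before the upstream one, and the Gata3 window has 0 copies. These letters were chosen after the sequences had been read, so their share among the members is partly fixed by that choice. Searched on both strands, they occur in 10 of 29 member windows (34.5%, 9 of 23 genes matched) and in 9.35% of 32851 promoter windows of this length. Without the 4 windows printed, they occur in 7 of 25 member windows (28.0%). The genes holding them are Cd247, Cd3d, Cd3e, Cd5, Cd79a, Lck, Prf1, Rag1 and Tbx21. GCGTG, the core that the aryl hydrocarbon receptor and its partner bind, cannot overlap AGGAAGT on either strand. It occurs in 9 of 29 member windows (31.0%) and 32.4% of all, and has 0 copies in the 4 windows printed. A match is a description of letters and not a site.

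Prf1 encodes perforin, the pore-forming protein of cytotoxic granules, on chromosome 10. The linked Prf1 probe read 7.05, 7.37 and 7.21 with 3MC, against 6.73, 6.82 and 6.85 with DMSO. Every 3MC array was above every DMSO array, and the 3MC arrays were spread more widely. Prf1 averaged 7.21 ± 0.16 with 3MC and 6.80 ± 0.063 with DMSO, a log2 fold change of 0.41 with a standard error of 0.09 (limma adjusted p = 0.000516), or 1.33-fold. On the scanner, before scaling, it read 204.3, 167.2 and 145.8 with 3MC, against 139.7, 144.6 and 144.4 with DMSO. The array that read 204.3 also had the highest median of all 6, 124.5. With arrays centred on their medians the log2 fold change was 0.35 and no longer passed (limma adjusted p = 0.143). A second Prf1 row had a ratio of 1.00 in the authors' deposited table, against 1.25 for the first. Its 2 candidate probes averaged 6.03 and 6.30 in DMSO, within the olfactory receptor range. The 2 rows of Prf1 thus differed in both level and ratio.

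Granzyme B (Gzmb, chromosome 14), the protease that perforin delivers into target cells, read 5.99, 5.77 and 5.76 with 3MC, against 5.91, 5.89 and 6.04 with DMSO. These arrays overlapped and stayed in the olfactory receptor range. The rows of Nkg7, a granule membrane protein, Klrd1, the CD94 chain of NK receptors, and Ncr1, the NKp46 receptor, could not be tied to 1 probe. All their candidate probes averaged 6.13 or less in DMSO. In the authors' deposited table their ratios were 1.02, 0.981 and 1.03, with unadjusted p-values of 0.405, 0.479 and 0.537.

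Lck, the kinase that phosphorylates the CD3 chains (chromosome 4), was the brightest linked member. Lck read 6.99, 7.13 and 7.16 with 3MC, against 7.04, 6.92 and 6.89 with DMSO. Both groups overlapped, and the log2 fold change of 0.14 (SE 0.09) did not pass (limma adjusted p = 0.218, 95% interval -0.03 to 0.32). Gata3, a transcription factor of T cell development and type 2 helper cells that is also used in other tissues (chromosome 2), read 6.63, 6.74 and 6.70 with 3MC, against 6.87, 6.87 and 6.89 with DMSO. All 3MC arrays of Gata3 were below all DMSO arrays. The log2 fold change was -0.19 (SE 0.08), which did not pass (limma adjusted p = 0.0887). Among the 3 members tested by limma, 1 passed higher and 0 lower, while 1 was lower at an unadjusted p of 0.05 (Gata3).

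The CD3 chains, which define T cells, were all within the range of olfactory receptor probes. Cd3e, on chromosome 9, read 5.97, 5.91 and 6.19 with 3MC, against 6.08, 6.11 and 6.04 with DMSO. Its neighbour Cd3g on the same chromosome read 5.94, 6.09 and 5.95 with 3MC, against 6.16, 6.08 and 6.09 with DMSO. Both genes overlapped between groups. Cd247, the zeta chain (chromosome 1), read 6.05, 5.92 and 5.84 with 3MC, against 5.90, 5.81 and 5.90 with DMSO, at 1 probe. At its other linked probe it read 5.98, 5.98 and 6.08 with 3MC, against 5.84, 6.09 and 6.01 with DMSO. Candidate probes for Cd3d averaged 5.96 to 6.26 in DMSO. None of the linked CD3 rows reached the median probe on any array, and the groups of Cd247 overlapped at both probes.

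Zap70, the kinase recruited to phosphorylated CD3 chains (chromosome 1), read 6.24, 6.18 and 6.13 with 3MC, against 6.14, 6.13 and 6.04 with DMSO. The other linked Zap70 probe read 6.27, 6.17 and 6.19 with 3MC, against 6.05, 6.13 and 5.98 with DMSO. At this probe all 3MC arrays were above all DMSO arrays, by a log2 fold change of 0.16 that did not pass in the fit of all probes (limma adjusted p = 0.228). Lat, the adaptor phosphorylated by Zap70, had candidate probes at 5.83 to 5.89 in DMSO. The coreceptor genes Cd4, Cd8a and Cd8b1 had candidates from 5.75 to 6.23. No coreceptor gene therefore reached the median probe in DMSO.

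Cd2, an adhesion receptor of T and NK cells (chromosome 3), read 5.96, 5.83 and 6.07 with 3MC, against 5.94, 5.90 and 5.88 with DMSO. Cd28, which gives the second signal for T cell activation (chromosome 1), read 5.86, 6.18 and 6.35 with 3MC, against 5.95, 6.12 and 6.25 with DMSO. The 3MC arrays of Cd28 spanned the widest range of any linked member, and the DMSO arrays lay inside it. Icos, a relative of Cd28 on the same chromosome, read 5.82, 6.04 and 6.13 with 3MC, against 6.22, 6.23 and 6.12 with DMSO. Its lowest array was a 3MC one, and the groups overlapped by a small margin. The log2 fold change of Icos was -0.19 and did not pass (limma adjusted p = 0.141, all probes). Ctla4, the inhibitory counterpart of Cd28, had candidates at 5.94 to 6.03.

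Cd6, a scavenger receptor family protein of T cells (chromosome 19), read 5.85, 5.94 and 5.92 with 3MC, against 6.10, 6.02 and 6.06 with DMSO. All 3MC arrays were below all DMSO arrays at this probe, with a log2 fold change of -0.16 that did not pass (limma adjusted p = 0.220, all probes). Its other linked probe read 5.84, 5.83 and 6.14 with 3MC, against 5.96, 6.08 and 5.99 with DMSO, with overlap. Cd6 has 2 further rows whose candidates include a probe above the olfactory receptor range, so their level is not settled. Foxp3, the factor that defines regulatory T cells (chromosome X), read 6.15, 5.96 and 6.19 with 3MC, against 6.08, 5.91 and 6.13 with DMSO. A further Foxp3 probe read 5.88, 5.93 and 6.07 with 3MC, against 5.93, 5.97 and 5.99 with DMSO. The groups overlapped at both Foxp3 probes. Tbx21, the T-bet factor of type 1 helper and NK cells, had candidates at 5.95 to 6.01.

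Of the B cell genes, Cd79b, a signalling chain of the B cell receptor (chromosome 11), was the brightest of those tied to a probe and the only one of them whose groups did not overlap. At 1 probe Cd79b read 6.05, 6.05 and 6.00 with 3MC, against 6.22, 6.38 and 6.38 with DMSO. In the authors' deposited table this row had a ratio of 0.876 (unadjusted p = 0.000569). The row lay below the signal filter. In the fit of all probes its log2 fold change was -0.29 (limma adjusted p = 0.00817), or -0.26 without DMSO replicate 2 (adjusted p = 0.0504) and -0.28 with arrays centred on their medians (adjusted p = 0.190). The other Cd79b probe read 6.17, 5.90 and 6.00 with 3MC, against 6.03, 6.02 and 6.09 with DMSO. Its groups overlapped, with a log2 fold change of -0.03, a smaller difference than at the first probe.

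Cd22, an inhibitory receptor of B cells (chromosome 7), read 6.08, 5.92 and 5.95 with 3MC, against 5.96, 6.06 and 6.08 with DMSO. A further probe for Cd22 read 5.91, 5.94 and 5.96 with 3MC, against 5.83, 6.00 and 6.11 with DMSO. The third Cd22 probe read 6.09, 6.32 and 5.97 with 3MC, against 6.19, 6.18 and 6.11 with DMSO. At each of them the arrays overlapped. Blk, a Src family kinase of B cells (chromosome 14), read 5.88, 5.93 and 5.81 with 3MC, against 5.87, 5.94 and 5.78 with DMSO. Its other linked probe read 5.90, 5.88 and 5.73 with 3MC, against 5.86, 5.76 and 6.00 with DMSO. Blk was the dimmest linked member in DMSO. Ebf1, an early B cell factor that stromal and fat cells also use (chromosome 11), read 6.00, 6.25 and 6.15 with 3MC, against 6.21, 6.19 and 6.15 with DMSO. Rag1, the recombinase of immature B and T cells (chromosome 2), read 6.14, 5.96 and 6.02 with 3MC, against 6.09, 5.99 and 6.08 with DMSO. Neither separated the groups. Pax5, the factor of B cell commitment, had candidates at 5.92 to 6.17. Ms4a1, which encodes CD20, had candidates at 5.96 to 9.78, so its level is not settled.

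Across the 26 linked rows the groups did not overlap at 5 (19.2%), with 3MC above at 2 and below at 3. Over all probes this held for 27.3%, with 3MC above at 13.6% and below at 13.7%. In the fit of all probes, where 16.1% passed (7.79% higher and 8.31% lower), 2 of the 26 rows passed (7.69%), Prf1 higher and Cd79b lower, and 4 had an unadjusted p under 0.05. The 95% intervals of the 24 rows that did not pass lay between -0.36 and 0.32, or 0.778-fold and 1.25-fold. The 23 linked rows below the signal filter read 79.3 to 122.7 on the scanner with 3MC and 82.4 to 113.1 with DMSO. The lowest probe of an array read 72.7 to 80.0, and the median probe 98.1 to 124.5 with 3MC and 107.8 to 109.1 with DMSO. Standard errors of the 26 rows were 0.080 to 0.096.

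**Figure D3:**
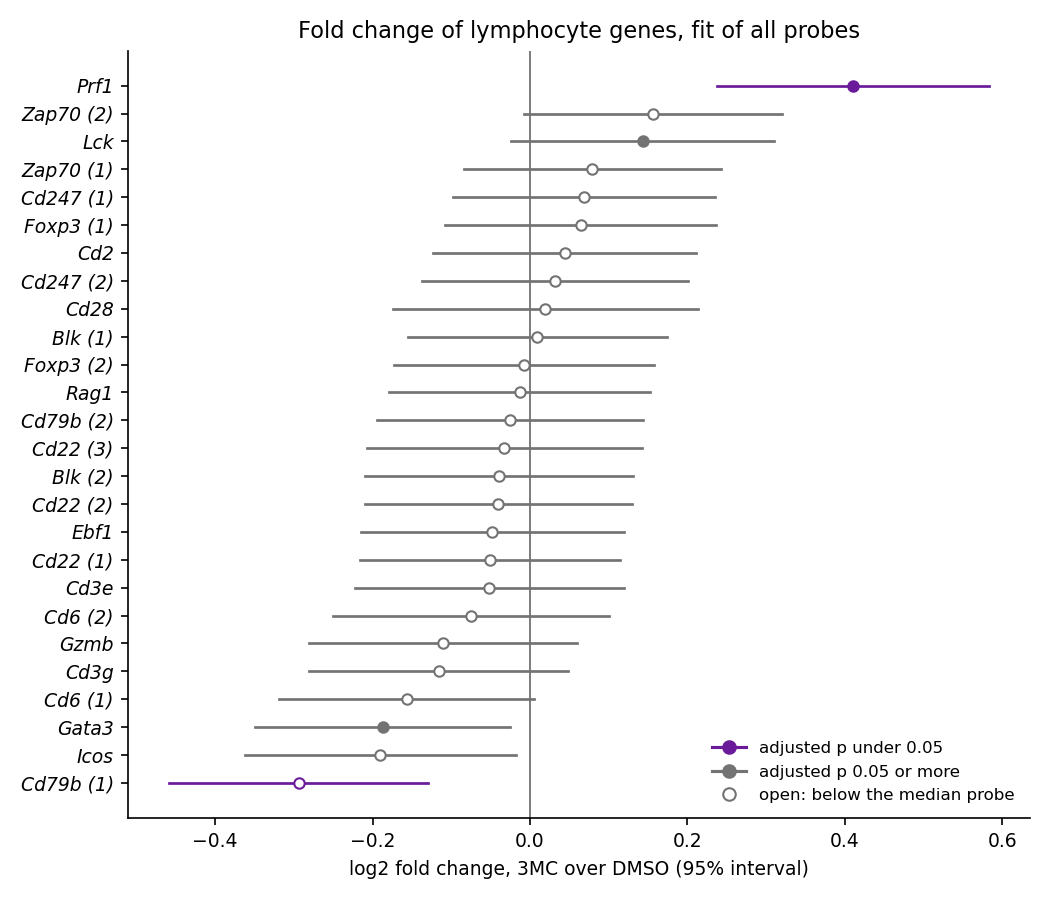
Log2 fold change of 3MC over DMSO (x axis) with its 95% interval for the 26 linked lymphocyte rows (y axis), from limma on all probes. Filled points have a 6-array mean above that of the median probe and open ones below it, and purple marks an adjusted p under 0.05. Prf1 stands at 0.41 and the first Cd79b probe at -0.29, and the intervals of the other 24 rows lie between -0.36 and 0.32.

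All 46 rows, linked or not, have a ratio in the authors' deposited table. There the median log2 ratio of the lymphocyte rows was 0.0055, against 0.00088 over all rows, and 26 of 46 ratios were above 1. The same ratios in the authors' deposited table ran from -0.19 to 0.32 on the log2 scale. An unadjusted p under 0.05 was given to 2 lymphocyte rows (4.35%), Prf1 and Cd79b, against 20.2% of all rows in the authors' deposited table and 4.74% of olfactory receptor rows. A change of 1.5-fold or more was found at 0 lymphocyte rows, where 1.12% of rows in the authors' deposited table were that much higher and 0.981% that much lower. None of the 537 rows of the authors' own selection is a lymphocyte row.

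**Figure D4:**
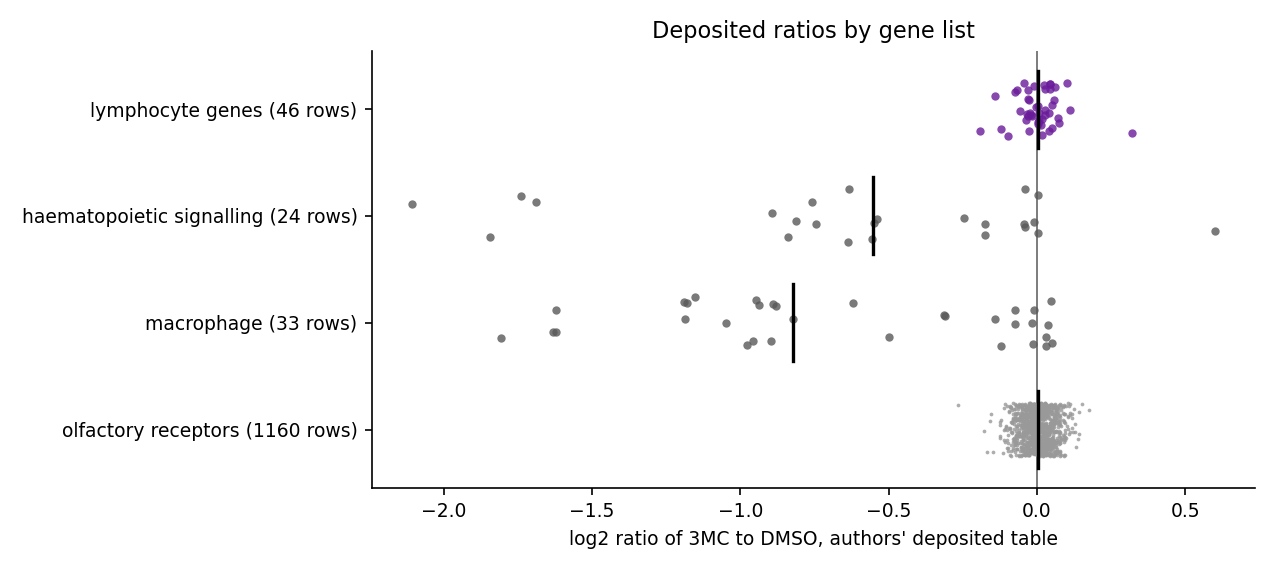
Log2 ratio, 3MC over DMSO, from the authors' deposited table (x axis) for every row of 4 gene lists, with 1 point per row and a bar at the median. Lymphocyte rows lie between -0.19 and 0.32, and olfactory receptor rows between -0.27 and 0.18, while the median macrophage row is at -0.82.

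Further genes of the same cells were mostly as dim. Of 15 linked genes on a list of other T cell genes, 5 passed the signal filter, and limma called 1 of those described here, Thy1, higher. Of all probes that passed this filter, 15.8% were called higher. Thy1, a surface protein of T cells and also of fibroblasts and neurons, rose to 8.65 ± 0.070 with 3MC, against 7.89 ± 0.11 with DMSO (log2 fold change 0.76, limma adjusted p = 1.02e-08). Tcf7, a T cell transcription factor, averaged 6.75 ± 0.12 with 3MC and 6.81 ± 0.044 with DMSO and the surface receptor Cd7 6.48 ± 0.20 with 3MC and 6.29 ± 0.040 with DMSO, and neither passed.

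On the list of T cell receptor signalling genes 5 of 14 linked genes passed the signal filter, of which 1 was called higher and 2 lower. Of all probes that passed this filter, 15.8% were called higher and 16.4% lower. In the fit of all probes 1 of the 14 was likewise called higher and 2 lower. There 7.79% of all probes were called higher and 8.31% lower. Vav1, an exchange factor found across blood cells, fell to 6.34 ± 0.17 with 3MC, against 7.33 ± 0.051 with DMSO (log2 fold change -0.99, limma adjusted p = 4.65e-11). Was, the actin regulator of the Wiskott-Aldrich syndrome, is named because it was the other gene to fall and was chosen after its values were seen, at 6.13 ± 0.20 with 3MC and 7.17 ± 0.084 with DMSO (log2 fold change -1.04). Cblb, a ubiquitin ligase of many cell types, rose to 7.49 ± 0.17 with 3MC, against 7.17 ± 0.057 with DMSO (log2 fold change 0.32), but did not pass with median centring or without 3MC replicate 2. Rasgrp1, which activates Ras in lymphocytes, averaged 6.96 ± 0.019 with 3MC and 7.02 ± 0.090 with DMSO and the factor Nfatc1 6.80 ± 0.15 with 3MC and 6.66 ± 0.13 with DMSO, and neither passed.

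Of 13 linked genes on the list of other B cell genes, 1 passed the signal filter. Btk, a kinase of B cells and also of myeloid and mast cells, fell to 6.36 ± 0.051 with 3MC, against 7.10 ± 0.16 with DMSO (log2 fold change -0.74, limma adjusted p = 3.32e-08). Blnk, its adaptor, averaged 6.11 ± 0.12 with 3MC and 6.31 ± 0.10 with DMSO, and the factor Spib 6.06 ± 0.066 with 3MC and 6.35 ± 0.083 with DMSO. Spib passed only in the fit of all probes (log2 fold change -0.29, limma adjusted p = 0.00969). The surrogate light chain gene Vpreb1 averaged 6.16 ± 0.059 with 3MC and 6.18 ± 0.027 with DMSO. Of 8 linked genes on the list of other NK genes, 0 passed the signal filter, and the brightest, the granzyme Gzmm, averaged 6.26 ± 0.15 with 3MC and 6.16 ± 0.100 with DMSO.

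Genes used by blood cells in general were brighter, and most of those tested were lower with 3MC. On a list of haematopoietic signalling genes, which shares Vav1 with the list above, 12 of 13 genes tested fell and 1 rose, with a median log2 fold change of -0.92. Over all 8180 linked genes that passed the signal filter, 1501 rose and 1637 fell, with a median of -0.04. That filter takes the mean of all 6 arrays, so genes bright only in DMSO could pass it, such as Rac2 and Hcls1 (6.20 and 6.06 with 3MC). In the fit of all probes 13 of 18 linked genes of this list fell and 1 rose, with a median of -0.77. There 1490 of all 13841 linked genes rose and 1657 fell, with a median of -0.03. Coro1a, a leukocyte actin-binding protein known for its role in T cell survival, fell to 6.50 ± 0.070 with 3MC, against 8.98 ± 0.12 with DMSO (log2 fold change -2.48, limma adjusted p = 2.12e-22). Laptm5, a lysosomal protein that lowers receptors on T and B cells, fell to 9.06 ± 0.061 with 3MC, against 10.76 ± 0.0044 with DMSO (-1.70). Arhgdib, on the same list, fell to 8.30 ± 0.036 with 3MC, against 9.19 ± 0.087 with DMSO (-0.89). Cytip, an adhesion regulator of lymphocytes and dendritic cells, rose to 8.07 ± 0.081 with 3MC, against 7.37 ± 0.0066 with DMSO (0.70). Macrophage genes fell at 16 of 17 genes tested, with a median of -1.19, and at 16 of 21 in the fit of all probes, with a median of -1.08. Among them C1qc averaged 7.26 ± 0.14 with 3MC and 9.08 ± 0.11 with DMSO and the lysozyme gene Lyzs 8.93 ± 0.092 with 3MC and 10.57 ± 0.088 with DMSO. Smaller falls were seen at Cd14, with 8.98 ± 0.061 with 3MC and 9.98 ± 0.097 with DMSO, and at Trem2, with 8.40 ± 0.093 with 3MC and 9.40 ± 0.027 with DMSO. The summed linear signal of the 17 macrophage genes that passed the signal filter was 2886 to 2923 with 3MC and 6972 to 7280 with DMSO. That sum holds genes that passed the filter only by their DMSO level, such as Cx3cr1 (5.96 with 3MC and 7.30 with DMSO). Each value also contains the offset of 50 added in background correction, so the sums are not amounts of RNA. No sum over all 21 linked genes was made. In bulk tissue, fewer cells of a type and less RNA per cell cannot be told apart. The share of macrophage RNA in the values of Vav1, Was, Btk, Coro1a, Laptm5 and Arhgdib was not tested.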

How the data were processed

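Illumina Mouse Ref-8 v2 arrays of 3 3MC and 3 DMSO samples were grouped by their titles. The authors deposited scanner intensity for 25697 probes, a value table on the log2 scale, and a comparison sheet. Per the file headers, that sheet gives a ratio (3MC over DMSO) and a p-value per row, each with a gene symbol. The submitters' processing notes name lumi, and no source used here gives the model behind the p-values. Members and gene lists were chosen with earlier results of these data known.

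Intensities were corrected with limma 3.58.1 (R 4.3.3; normexp, offset 50), quantile normalized on the log2 scale and fitted with lmFit and eBayes (two-sided, group only, Benjamini-Hochberg over the 12848 probes above the median probe's mean). No detection values were used for that filter. The test was checked on simulated data with independent noise of equal spread at every probe and changes only at probes above the filter. That check does not cover member rows below the filter.

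The sheet and the probe tables share no identifier. A first join, to the only probe within 5e-05 of a row's log2 ratio, tied 2656 rows, 2 of them member rows (Cd79b and Prf1). A join chosen after seeing the data used the ratio of the value table, rounded to 6 significant digits as printed in the sheet: 16002 rows had 1 probe, and the size of the authors' p-value settled 2087 more. It tied 26 member rows, 2 of them by that p-value (Cd247 and Zap70). Of 2656 first joins, 2633 were also made this way, all 2633 to the same probe. Of 13369 further joins, 0 had a p-value too small for the probe's spread at 10 residual degrees of freedom, the lowest number at which no join did, against 14.2% with the neighbouring probe. Counts of passing members are the same under both joins. Genes are represented by their kept probe of highest signal.

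Alternatives were other normalizations, background corrections, signal filters and joins, a replicate block and leaving out each array. Every member with a row is accounted for, and up to 4 genes of each other list are named by mean signal. 1 gene of the list of other T cell genes is not reported here. Promoter windows are RefSeq's (GRCm38.p6), and 23 of 33 members had one.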

Additional observations from a re-analysis of the deposited data

How the results depend on the processing

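With arrays centred on their medians, 1106 probes passed, against 4136, and 0 members passed higher, against 1 (Prf1, log2 fold change 0.35, limma adjusted p = 0.143). Under 12 of its 13 alternatives Prf1 passed, with log2 fold changes of 0.32 to 0.48 over all 13. With no filter on low signal, under either join, 1 member passed lower (Cd79b), against 0. That call passed under 9 of 11 further alternatives and was lost with median centring (log2 fold change -0.28, limma adjusted p = 0.190) and when DMSO replicate 2 was left out (-0.26, adjusted p = 0.0504). Leaving out each array gave 3339 to 3607 passing probes, 1 member higher and 0 lower each time. Where no other join is named, member counts here and with the replicate block below cover only the 2 member rows of the first join. These are Prf1 and Cd79b, and Cd79b lay below the signal filter, so 0 lower was close to fixed in advance. Lck and Gata3, linked by the second join, each passed under 0 of 13 alternatives.

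Replicate numbers did not pair the samples: deviations of same-numbered arrays from their group means correlated at -0.079, -0.096 and 0.084. With the number as a replicate block, 3986 probes passed, 1 member higher and 0 lower, and the block changed the call at 0 of 44 named genes and probes. Over the same 44, 0 of 524 values reversed a called direction and 12 lost the call.

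Nearly all members lay within the range of olfactory receptor probes in DMSO, though their median linked row was higher (6.05 against 5.94). The arrays hold almost no range below them, and the number of arrays limits the intervals. The level of 3 rows (2 of Cd6 and 1 of Ms4a1) was not settled.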
